A study of Homo sapiens with 12 samples.

Results

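The genes described here are 5 STAT transcription factors (STAT2, STAT3, STAT5A, STAT5B and STAT6) and the 4 Janus kinases (JAK1, JAK2, JAK3 and TYK2). They were chosen by symbol, 9 of 39368 listed in each of the tables, to see which of them fall when MUC1 is silenced in cells of head and neck squamous carcinoma (HNSCC) and which do not. The RNA-seq libraries came from CAL27 and HSC3, a pair of HNSCC cell lines without HPV, each carrying a MUC1 shRNA that doxycycline (DOX) switches on. Each line received 500 ng/ml DOX or 0.1% DMSO as vehicle for 7 days. There were 3 libraries in each of 4 groups, 12 in all, from triplicate cultures of each line. Vehicle-treated and DOX-treated cells carried the same shRNA vector, and libraries from DOX-treated cells with a control shRNA were not analysed here, so DOX itself and silencing of MUC1 cannot be told apart. Each line is 1 cell line counted in 1 table, so that line and batch cannot be told apart either.

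In JAK-STAT signaling, a cytokine brings its receptor chains together, the Janus kinases bound to those chains phosphorylate the receptor and then the STATs, and paired STATs enter the nucleus to bind DNA. STAT2 serves type I and type III interferons and acts with the DNA-binding protein IRF9. STAT3 responds to the IL-6 family, STAT5A and STAT5B to growth hormone, prolactin and several interleukins, and STAT6 to IL-4 and IL-13. JAK1, JAK2 and TYK2 are made in most tissues, whereas JAK3 is known mainly from blood cells, where it sits on the common gamma chain.

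Total counts per library were 126328662, 97477659 and 108406101 in CAL27 with vehicle, and 97280495, 92866845 and 117677241 after DOX. For HSC3 the totals were 125052179, 89730914 and 130393198 in the vehicle group, and 169065103, 146548684 and 134231542 after DOX. Several counts stood for 1 molecule, as estimated from how often a gene expected at 8 to 16 counts had none: 2.66 to 3.55 in the CAL27 libraries, 4.40 to 7.66 in HSC3 with vehicle and 9.14 to 17.5 in HSC3 with DOX. HSC3 DOX replicate 1 stood apart, with the highest total, the fewest genes with a count (19128) and 17.5 counts per molecule, so the members' calls that it changed are given with and without it. Levels below are CPM, counts scaled to the library's total after TMM normalization within each line, so the lines are set against each other only in a fit of all 12 libraries. Changes are log2 fold changes of DOX against vehicle from edgeR, with their standard error (SE), and adjusted p-values are Benjamini-Hochberg values over all genes tested (19239 in CAL27, 18021 in HSC3). All 9 genes passed the filter on low counts in both lines.

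MUC1, the target of the shRNA (chr1:155185824-155192916 of GRCh38, minus strand), was at 63.9, 58.9 and 59.9 CPM in the CAL27 vehicle libraries and at 3.19, 3.06 and 3.58 CPM in those with DOX. The HSC3 libraries were at 1.51, 1.78 and 1.5 CPM with vehicle and at 0.279, 0.244 and 0.120 CPM with DOX. In both lines every DOX library was below every vehicle library, with a log2 fold change of -4.21 (SE 0.067, edgeR adjusted p = 1.6e-19) in CAL27 and -2.88 (SE 0.38, edgeR adjusted p = 2.0e-04) in HSC3. With vehicle, MUC1 was lower in HSC3 than in CAL27 by -4.98 (edgeR adjusted p = 1.7e-13) in the fit of 12 libraries. In the same fit its fall with DOX was smaller in HSC3 by 1.36 (interaction of line and DOX, edgeR adjusted p = 0.0010). No library went against its label in MUC1.

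Among the STATs, STAT2 was the one that fell in both lines, and STAT5B was the one that rose in both, by a small amount in CAL27. STAT5A and STAT6 fell in CAL27 without passing the test in HSC3, and STAT3 passed in neither line. Of the kinases, JAK3 and TYK2 were lower in CAL27 and JAK2 was lower in HSC3, while JAK1 passed in neither. At an edgeR adjusted p under 0.05, 5 of the 9 were lower in CAL27, where 21.8% of all genes tested were, and 1 was higher, against 22.6%. Without CAL27 vehicle replicate 1 or DOX library 5, 3 were lower, and the 1 higher, STAT5B, was lost without any 1 of the libraries except DOX library 6. In HSC3, 2 were lower, against 15.4% of all genes, and 1 was higher, against 13.0%, while 1 was lower without HSC3 vehicle replicate 1 or DOX replicate 3, and 2 were higher without DOX replicate 1. STAT2 in CAL27 was the only value past 2-fold, where 5.11% of all genes were lower by that much in CAL27 and 4.40% in HSC3. The median log2 fold change of the 9 genes was -0.15 in CAL27 and 0.02 in HSC3, and that of all genes was -0.01 in both. In bulk RNA, fewer cells of a type and less RNA per cell cannot be told apart.

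**Figure D1:**
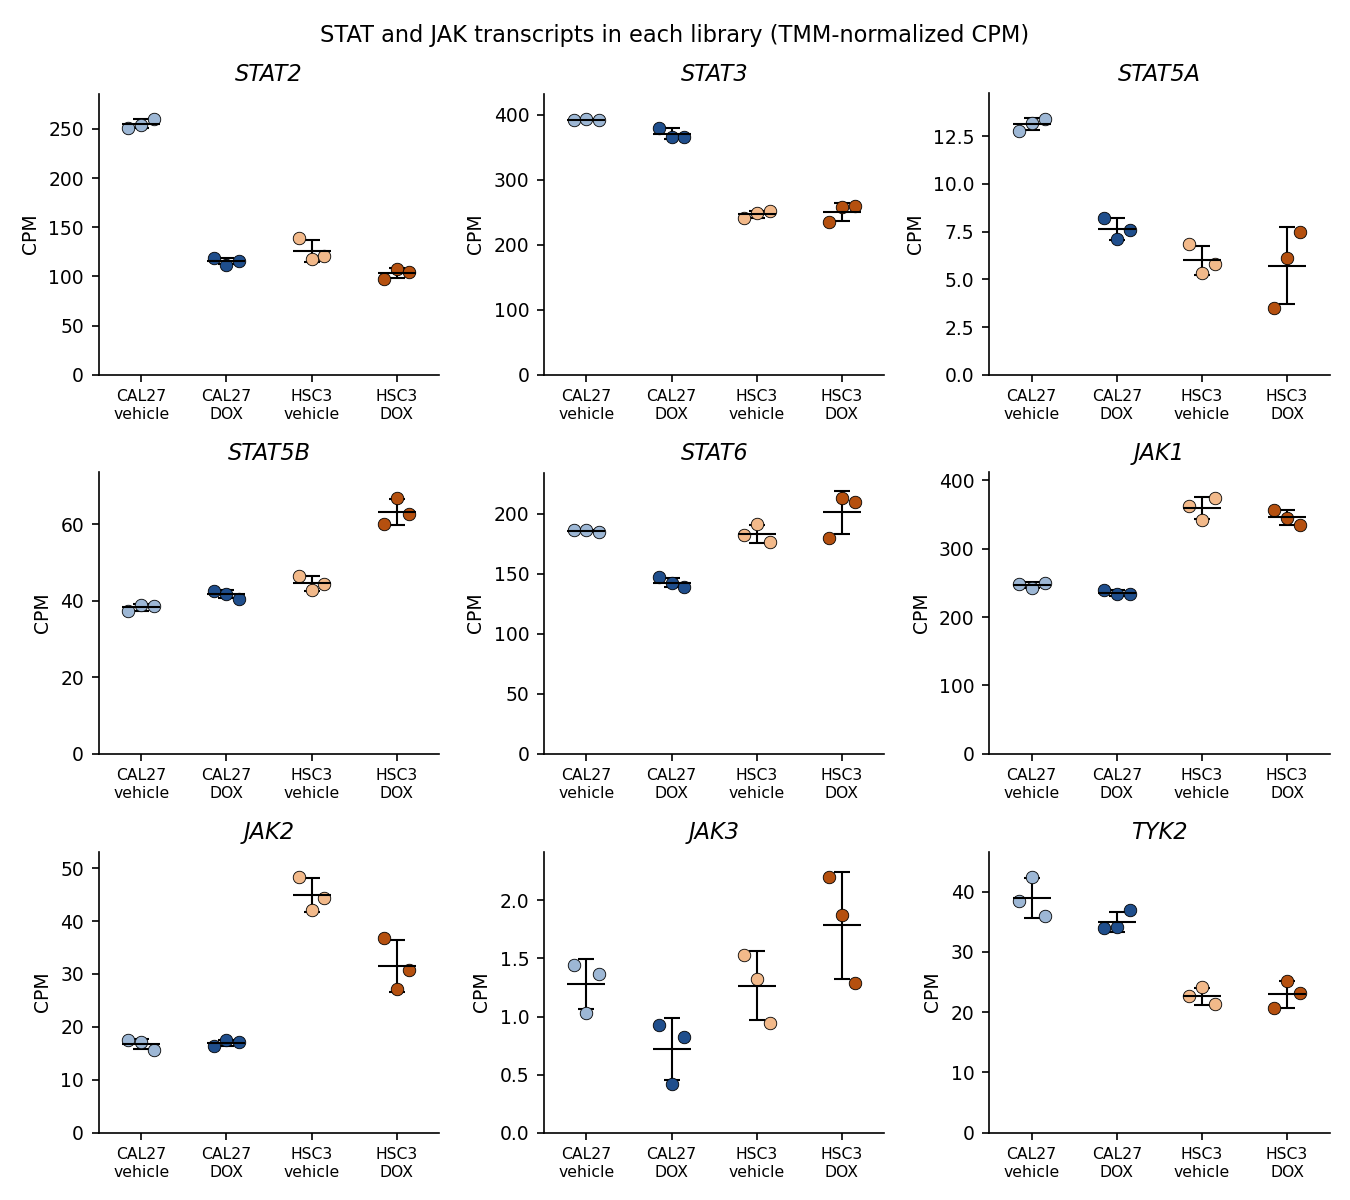
TMM-normalized CPM (linear axes from 0) of each STAT and JAK gene in the 12 libraries, as points, with the mean and SD of each group of 3. STAT2 is separated between vehicle and DOX in both lines and STAT5B is higher with DOX, while JAK3 lies at or below 2.20 CPM in every library.

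STAT2 lies on chr12:56341597-56360203 of GRCh38, on the minus strand, and no other annotated gene overlaps its exons. It was at 251, 254 and 260 CPM in the CAL27 vehicle libraries and at 119, 112 and 116 CPM with DOX. The HSC3 libraries were at 139, 118 and 121 CPM with vehicle and reached 97.5, 108 and 105 CPM with DOX. The groups did not overlap in either line, and they lay far closer together in HSC3. The log2 fold change was -1.14 (SE 0.038, 95% interval -1.22 to -1.06, edgeR adjusted p = 8.9e-15) in CAL27, which is 2.21-fold lower. In HSC3 it was -0.29 (SE 0.077, 95% interval -0.46 to -0.12, edgeR adjusted p = 0.018), which is 1.22-fold lower. The HSC3 call was lost without vehicle replicate 1 (log2 fold change -0.21, edgeR adjusted p = 0.099) and without DOX replicate 3 (-0.30, edgeR adjusted p = 0.051), and it was kept without DOX replicate 1 (-0.25, edgeR adjusted p = 0.0042). The fall in HSC3 was smaller by 0.86 on the log2 scale (interaction of line and DOX, edgeR adjusted p = 6.1e-06).

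STAT5A and STAT5B are neighbors on chromosome 17, at chr17:42287547-42311943 on the plus strand and chr17:42199176-42288633 on the minus strand. Their gene bodies overlap by 1087 bases, so that 6.50% of the exon bases of STAT5A lie under STAT5B and 3.43% the other way. They also resemble each other in sequence, and 7.56% of the 50-base words in STAT5A transcripts occur in STAT5B transcripts, with 3.96% the other way, whereas no other pair of the 9 shared such a word. The library kit was stranded, but whether the counting used strand is not given in the sources used here, and reads from these stretches may be counted for either gene.

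In CAL27 cells, STAT5A went from 12.8, 13.2 and 13.4 CPM to 8.22, 7.09 and 7.59 CPM under DOX, and the groups did not overlap. The log2 fold change was -0.78 (SE 0.076, 95% interval -0.94 to -0.62, edgeR adjusted p = 4.8e-08). The HSC3 libraries held 6.84, 5.33 and 5.82 CPM of it with vehicle and 3.51, 6.13 and 7.48 CPM with DOX. The DOX libraries spread more widely than those with vehicle and lay on both sides of them, the lowest being the library that stood apart. The HSC3 log2 fold change was -0.07 (SE 0.24, 95% interval -0.60 to 0.45, edgeR adjusted p = 0.87), and it ran from 0.18 without DOX replicate 1 (edgeR adjusted p = 0.40) to -0.32 without DOX replicate 3 (edgeR adjusted p = 0.41). The difference between the lines was 0.71 (edgeR adjusted p = 0.085) with all libraries, 0.98 (edgeR adjusted p = 9.3e-05) without HSC3 DOX replicate 1 and 0.48 (edgeR adjusted p = 0.21) without HSC3 DOX replicate 3.

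In CAL27 cells STAT5B and STAT5A moved in opposite directions, while in HSC3 STAT5B passed the test and STAT5A did not. In HSC3 cells it was at 46.6, 42.8 and 44.3 CPM with vehicle and at 60.2, 66.9 and 62.8 CPM with DOX, a log2 fold change of 0.51 (SE 0.073, edgeR adjusted p = 4.1e-04) with no overlap between the groups. This call held without HSC3 DOX replicate 1 (0.54, edgeR adjusted p = 1.1e-06). In CAL27 cells it was at 37.3, 39.0 and 38.7 CPM with vehicle and at 42.7, 41.9 and 40.6 CPM with DOX, also without overlap. That rise was small, at 0.12 (SE 0.046, edgeR adjusted p = 0.036), and its call was lost in 8 of 12 alternatives. Among these were leaving out vehicle replicate 1, 2 or 3 (edgeR adjusted p = 0.17, 0.094 and 0.091) or the DOX library numbered 4 or 5 in the table (edgeR adjusted p = 0.12 and 0.090). The rise was larger in HSC3 by 0.39 (edgeR adjusted p = 0.0027).

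Per kilobase of exon, the level of STAT5B over that of STAT5A was 1.54, 1.55 and 1.53 in CAL27 cells with vehicle and 2.74, 3.11 and 2.82 with DOX. In HSC3 cells the ratio was 3.59, 4.23 and 4.02 with vehicle and 9.06, 5.75 and 4.43 with DOX. The DOX libraries had the higher ratio in both lines without overlap, and 3 against 3 libraries allow no exact permutation p below 0.1. In HSC3 the nearest values were close, 4.43 in DOX replicate 3 and 4.23 in vehicle replicate 2.

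**Figure D2:**
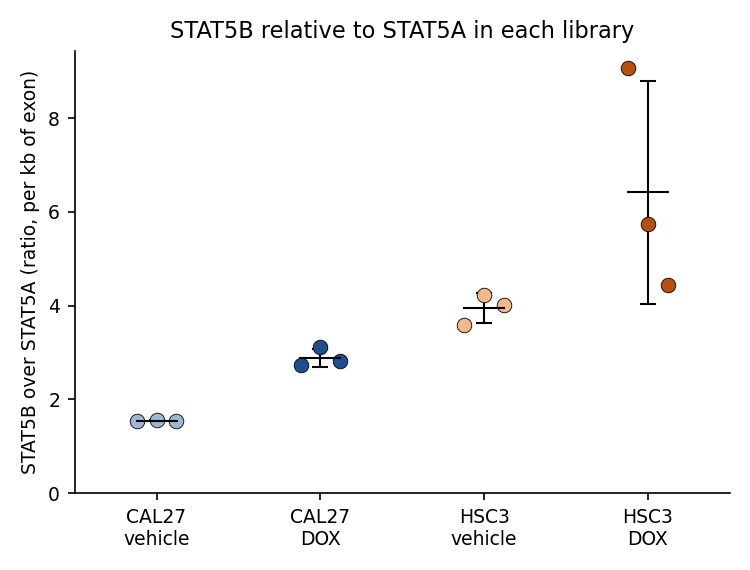
Ratio of the STAT5B to the STAT5A level, each per kilobase of exon, in the 12 libraries (points) with the mean and SD of each group of 3. The ratio runs from 1.53 to 1.55 in CAL27 cells with vehicle and from 2.74 to 3.11 with DOX, and one HSC3 DOX library reaches 9.06.

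STAT6 lies on chr12:57095408-57132139, minus strand, with 1.75% of its exon bases under LRP1 and NAB2 on the other strand. In CAL27 cells it was at 186, 186 and 185 CPM with vehicle and at 147, 142 and 139 CPM with DOX. Every DOX library was lower, with a log2 fold change of -0.38 (SE 0.037, edgeR adjusted p = 6.0e-08). The HSC3 libraries were at 182, 191 and 176 CPM with vehicle and at 180, 213 and 210 CPM with DOX. The HSC3 groups overlapped through DOX replicate 1, and the log2 fold change was 0.13 (SE 0.074, 95% interval -0.03 to 0.30, edgeR adjusted p = 0.22), or 0.21 (edgeR adjusted p = 0.0026) without that library. The lines differed by 0.51 (edgeR adjusted p = 4.4e-04).

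STAT3 lies at chr17:42313324-42388540 on the minus strand, with 1380 bases between its 3′ end and that of STAT5A. With DOX it went in CAL27 cells from 392, 393 and 391 CPM to 380, 366 and 365 CPM. Its levels in HSC3 cells were 241, 248 and 251 CPM with vehicle and 235, 258 and 259 CPM with DOX. The CAL27 DOX libraries were all lower, by only -0.08 on the log2 scale (SE 0.037, edgeR adjusted p = 0.082), and this passed the test in 3 of 12 alternatives, one of them without DOX library 4 (-0.10, edgeR adjusted p = 0.042). The HSC3 groups overlapped, with 0.03 (SE 0.061, 95% interval -0.11 to 0.16, edgeR adjusted p = 0.81). The lines differed in STAT3 by 0.11 (edgeR adjusted p = 0.30), or 0.17 (edgeR adjusted p = 0.022) without HSC3 DOX replicate 1. Changes in STAT3 beyond 0.16 on the log2 scale lay outside the intervals of both lines.

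JAK1 serves the interferon, IL-6 and common gamma chain receptors and lies at chr1:64833223-65067754, minus strand, where 4.91% of its exon bases are shared with LINC01359 on the same strand. CAL27 libraries had 248, 242 and 250 CPM with vehicle and 240, 233 and 233 CPM with DOX. HSC3 libraries had 362, 342 and 374 CPM with vehicle and 357, 345 and 335 CPM with DOX. In CAL27 every DOX library was below every vehicle library, and the HSC3 groups overlapped. The values were close in each line, with log2 fold changes of -0.07 (SE 0.037, 95% interval -0.14 to 0.01, edgeR adjusted p = 0.15) and -0.06 (SE 0.060, 95% interval -0.19 to 0.07, edgeR adjusted p = 0.55). The difference between the lines was 0.01 (edgeR adjusted p = 0.95).

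JAK2, at chr9:4984390-5129948 on the plus strand, serves the interferon-gamma, growth hormone and erythropoietin receptors. In HSC3 cells it was at 48.3, 42.1 and 44.3 CPM with vehicle and at 36.7, 27.1 and 30.7 CPM with DOX, with no overlap. In CAL27 cells it was at 17.5, 17.1 and 15.6 CPM with vehicle and at 16.4, 17.5 and 17.1 CPM with DOX, where the groups overlapped. It fell in HSC3 by -0.51 on the log2 scale (SE 0.11, edgeR adjusted p = 0.0054), or -0.64 (edgeR adjusted p = 2.2e-06) without HSC3 DOX replicate 1, its highest DOX library. In CAL27 the change was 0.02 (SE 0.064, 95% interval -0.11 to 0.15, edgeR adjusted p = 0.82). The lines differed by -0.53 (edgeR adjusted p = 0.014), a call lost without CAL27 vehicle replicate 3 (-0.47, edgeR adjusted p = 0.052).

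TYK2, the kinase of the interferon alpha receptor chain IFNAR1 at chr19:10350533-10380608 on the minus strand, was at 38.4, 42.4 and 35.9 CPM in CAL27 cells and at 33.9, 34.1 and 36.9 CPM after DOX. The groups overlapped, and the log2 fold change of -0.15 (SE 0.058, edgeR adjusted p = 0.041) lost its call in 6 of 12 alternatives, with an adjusted p of up to 0.24. It was lost without vehicle replicate 1 or 2 (edgeR adjusted p = 0.070 and 0.23) and without DOX library 4 or 5 (edgeR adjusted p = 0.093 and 0.15). The HSC3 values were 22.6, 24.1 and 21.3 CPM with vehicle and 20.7, 25.1 and 23.1 CPM with DOX, a change of 0.02 (SE 0.099, 95% interval -0.20 to 0.24, edgeR adjusted p = 0.91).

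JAK3, at chr19:17824780-17848071 on the minus strand, was near the limit of what these libraries could count. The CAL27 vehicle libraries had 182, 101 and 151 counts and the DOX libraries 89, 39 and 96. The HSC3 vehicle libraries had 194, 120 and 124 counts and the DOX libraries 363, 276 and 172, in libraries where 1 molecule was estimated to give several counts. The CAL27 libraries ran from 1.03 to 1.44 CPM with vehicle and from 0.418 to 0.928 CPM with DOX without overlap, a log2 fold change of -0.83 (SE 0.25, edgeR adjusted p = 0.011). In HSC3 the groups overlapped, with 0.50 (SE 0.28, 95% interval -0.13 to 1.12, edgeR adjusted p = 0.24), or 0.32 (edgeR adjusted p = 0.46) without DOX replicate 1, its highest DOX library. The CAL27 call was lost in 3 of 12 alternatives, among them without vehicle replicate 1 (-0.74, edgeR adjusted p = 0.058) and without DOX library 5 (-0.56, edgeR adjusted p = 0.061). The difference between the lines, 1.33 (edgeR adjusted p = 0.046), was lost in 7 of 17, each time by leaving out 1 library. These were CAL27 vehicle replicates 1 and 3 (edgeR adjusted p = 0.11 and 0.098), CAL27 DOX libraries 5 and 6 (0.11 and 0.062), HSC3 vehicle replicates 2 and 3 (0.077 and 0.10) and HSC3 DOX replicate 2 (0.064).

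**Figure D3:**
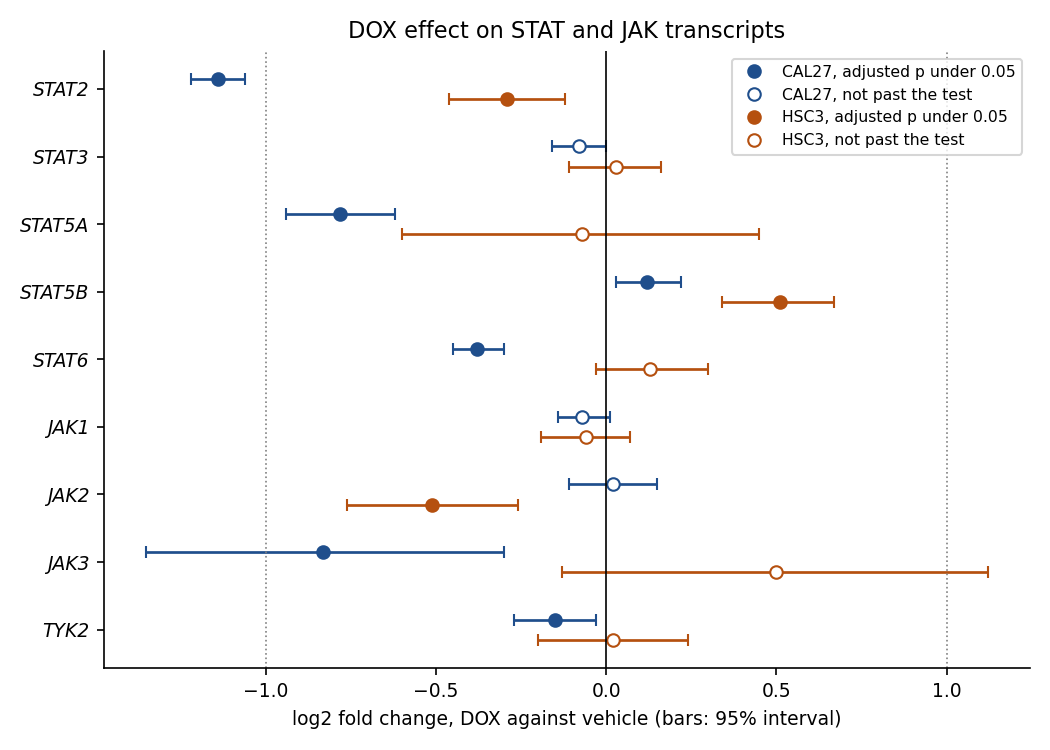
Log2 fold change of DOX against vehicle (x axis) for the 9 genes in CAL27 (blue) and HSC3 (orange) cells, with 95% intervals from edgeR. Filled points have an adjusted p under 0.05 and dotted lines mark 2-fold. STAT2 in CAL27 lies at -1.14, STAT5B lies to the right of 0 in both lines, and STAT6 lies at -0.38 in CAL27 and 0.13 in HSC3.

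In CAL27 cells 6 of the 9 genes had every DOX library below every vehicle library, as did 26.3% of all genes tested, and 1 had every DOX library above, against 26.0%. In HSC3 cells the numbers were 2, against 22.8%, and 1, against 19.8%. The interaction was lower in HSC3 than in CAL27 for 1 of the 9, JAK2, where 12.3% of 20694 genes were. It was higher for 4, STAT2, STAT5B, STAT6 and JAK3, against 8.25%.

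The 2 lines also differed without DOX. With vehicle, JAK2 was higher in HSC3 than in CAL27 by 1.70 on the log2 scale (edgeR adjusted p = 6.4e-10), JAK1 by 0.82 (edgeR adjusted p = 5.5e-10) and STAT5B by 0.49 (edgeR adjusted p = 1.4e-06). STAT5A was lower by -0.85 (edgeR adjusted p = 0.0012), STAT2 by -0.74 (edgeR adjusted p = 3.1e-08), TYK2 by -0.50 (edgeR adjusted p = 6.6e-05) and STAT3 by -0.39 (edgeR adjusted p = 2.1e-06). When CPM was scaled by library totals alone, without TMM, the all-gene median moved from -0.12 to -0.39. STAT5B was then at 0.22 (edgeR adjusted p = 0.0047), STAT3 at -0.66 (edgeR adjusted p = 9.5e-09) and TYK2 at -0.77 (edgeR adjusted p = 1.8e-06). STAT6 was higher by 0.25 (edgeR adjusted p = 0.0014) with TMM scaling but at -0.02 (edgeR adjusted p = 0.85) with library totals. JAK3 gave 0.25 (edgeR adjusted p = 0.50). At an adjusted p under 0.05, 4 of the 9 were lower in HSC3, where 32.3% of all genes were, and 4 were higher, against 30.6%.

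Levels of different genes were compared per kilobase of annotated exon. In CAL27 cells with vehicle the order was STAT3 at 35.0 ± 0.0924 CPM per kb (SD, n = 3), STAT2 at 27.4 ± 0.488, STAT6 at 25.4 ± 0.140 and JAK1 at 18.7 ± 0.308, followed at a distance by TYK2 at 4.57 ± 0.383, STAT5B at 3.17 ± 0.0753, JAK2 at 2.12 ± 0.126, STAT5A at 2.06 ± 0.0509 and JAK3 at 0.153 ± 0.0261 CPM per kb. Only JAK2 and STAT5A overlapped among neighbors in that order. With DOX, STAT2 dropped from rank 2 to rank 4 in CAL27 cells, at 12.4 ± 0.380 CPM per kb (SD, n = 3), below STAT6 and JAK1. Per kilobase of the longest transcript it was at rank 3 with vehicle, below STAT6, and at rank 4 with DOX.

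In HSC3 cells with vehicle JAK1 led at 27.3 ± 1.23 CPM per kb (SD, n = 3), overlapping STAT6 at 25.1 ± 0.986, before STAT3 at 22.0 ± 0.458 and STAT2 at 13.5 ± 1.23. JAK2 at 5.68 ± 0.397, STAT5B at 3.68 ± 0.157, TYK2 at 2.66 ± 0.163, STAT5A at 0.939 ± 0.121 and JAK3 at 0.152 ± 0.0354 CPM per kb followed without overlap. With DOX, STAT5B at 5.23 ± 0.277 CPM per kb (SD, n = 3) passed JAK2 at 3.98 ± 0.619, and STAT6 at 27.5 ± 2.48 overlapped JAK1 at 26.2 ± 0.865. The order of near neighbors depends on the length used. Per kilobase of the longest transcript STAT3 led in HSC3 cells with vehicle, at 48.8 ± 1.02 (SD, n = 3), overlapping JAK1 at 46.2 ± 2.09.

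**Figure D4:**
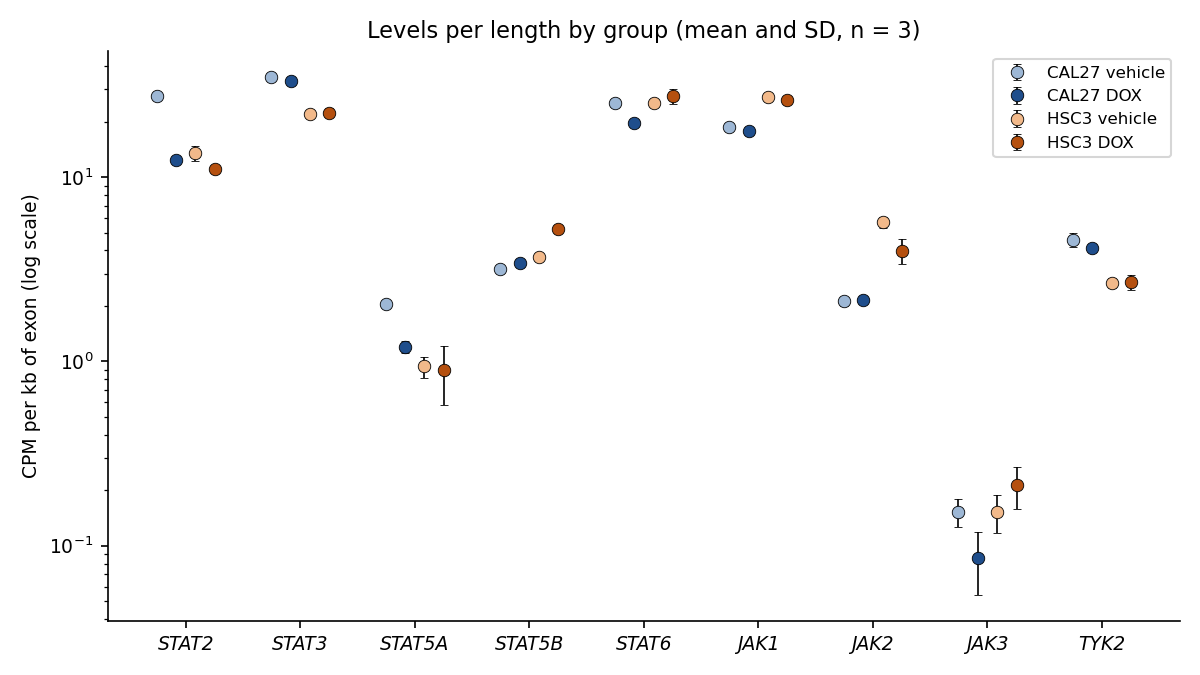
Level of each gene in CPM per kilobase of exon (log axis), as the mean and SD of 3 libraries in each of the 4 groups, scaled within each line. STAT2, STAT3, STAT6 and JAK1 lie above 11.0, the others below 6, and JAK3 is lowest in every group, from 0.0863 to 0.214.

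The genes around the STATs and JAKs were read from lists of receptors, ligands, feedback regulators, partners and reported targets, and each list's counts at an edgeR adjusted p under 0.05 are set beside the share of all genes tested. Of 27 cytokine receptor chains tested in CAL27 cells, 13 were lower and 6 higher, against 21.8% and 22.6% of all genes, and of 25 in HSC3 cells 7 were lower and 2 higher, against 15.4% and 13.0%. The median log2 fold change was -0.25 in CAL27 and -0.27 in HSC3. IL20RB, a chain of the IL-20 family receptors, fell by -1.60 (SE 0.079, edgeR adjusted p = 5.0e-12) in CAL27 and -1.71 (SE 0.15, edgeR adjusted p = 1.4e-05) in HSC3. IFNGR1, the ligand-binding chain for interferon-gamma, also fell in both, by -1.20 (edgeR adjusted p = 8.8e-14) and -1.44 (edgeR adjusted p = 4.5e-06). LEPR, the leptin receptor, rose by 0.56 (edgeR adjusted p = 4.2e-04) in CAL27 and was at -0.18 (edgeR adjusted p = 0.23) in HSC3, and EPOR, the erythropoietin receptor, gave 0.42 (edgeR adjusted p = 0.011) and 0.22 (edgeR adjusted p = 0.65). IL27RA fell in HSC3 by -1.44 (edgeR adjusted p = 3.1e-04) and was at -0.25 (edgeR adjusted p = 0.081) in CAL27. IL15RA rose in HSC3 by 0.67 (edgeR adjusted p = 0.0028), with a CAL27 adjusted p of 0.98. LIFR rose in HSC3 by 0.34 (edgeR adjusted p = 0.010) and fell in CAL27 by -0.14 (edgeR adjusted p = 0.0053), a difference of 0.49 (edgeR adjusted p = 1.0e-03).

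Of 18 ligands tested in each line, 4 were lower and 5 higher in CAL27, against 21.8% and 22.6% of all genes, and 3 were lower and 3 higher in HSC3, against 15.4% and 13.0%. Their medians were -0.04 and -0.15. IL6 and LIF, ligands of receptors that signal to STAT3, rose in both lines. IL6 went from a mean of 2.91 to 6.38 CPM in CAL27 (log2 fold change 1.13, edgeR adjusted p = 3.7e-08) and from 1.88 to 5.54 CPM in HSC3 (1.55, edgeR adjusted p = 5.4e-04). LIF changed by 0.97 (edgeR adjusted p = 8.4e-10) and 1.31 (edgeR adjusted p = 2.4e-05). IL11, CLCF1, CTF1 and CNTF, also of the IL-6 family, did not pass as higher in both lines. IL11 gave 1.23 (edgeR adjusted p = 0.0067) in CAL27 and -1.15 (edgeR adjusted p = 0.030) in HSC3. CLCF1 gave 0.68 and -0.16 (edgeR adjusted p = 5.7e-06 and 0.57), CTF1 -0.01 and 1.15 (0.98 and 1.7e-05), and CNTF 0.51 and 0.63 (0.035 and 0.64). IL15 fell in CAL27 by -0.93 (edgeR adjusted p = 5.7e-06) and in HSC3 by -1.35 (edgeR adjusted p = 0.037). IL7 fell in CAL27 by -0.77 (edgeR adjusted p = 2.5e-04) and was at -0.40 (edgeR adjusted p = 0.45) in HSC3. IFNE, an epithelial type I interferon, fell in HSC3 by -0.96 (edgeR adjusted p = 0.0056) and was at 0.33 (edgeR adjusted p = 0.27) in CAL27.

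Of 20 feedback genes, 6 were lower and 8 higher in CAL27, against 21.8% and 22.6% of all genes, and 6 were lower and 4 higher in HSC3, against 15.4% and 13.0%, with medians of -0.04 and 0.08. USP18, which restrains signaling at IFNAR2, fell by -1.29 (edgeR adjusted p = 4.7e-10) in CAL27 and was at -0.22 (edgeR adjusted p = 0.59) in HSC3, a difference of 1.07 (edgeR adjusted p = 0.0098). SOCS5 fell in both lines, by -0.24 (edgeR adjusted p = 2.6e-04) and -0.32 (edgeR adjusted p = 0.029), and SOCS2 rose in both, by 0.41 (edgeR adjusted p = 0.012) and 0.23 (edgeR adjusted p = 0.040). PTPN11, which encodes the phosphatase SHP2, rose in CAL27 by 0.44 (edgeR adjusted p = 1.1e-08) and was at 0.10 (edgeR adjusted p = 0.27) in HSC3. SOCS3, the inhibitor induced by STAT3, rose in HSC3 from 13.9 to 32.1 CPM (log2 fold change 1.21, edgeR adjusted p = 2.4e-06) and less in CAL27, by 0.35 (edgeR adjusted p = 2.5e-04), a difference of 0.86 (edgeR adjusted p = 4.2e-05). PTPN1, a phosphatase of JAK2 and TYK2, rose by 0.37 (edgeR adjusted p = 1.1e-07) in CAL27 and 0.41 (edgeR adjusted p = 5.1e-04) in HSC3. SH2B3, which encodes the JAK2 inhibitor LNK, fell by -0.24 (edgeR adjusted p = 0.0054) and -0.93 (edgeR adjusted p = 1.8e-05). SOCS4 fell in HSC3 by -0.89 (edgeR adjusted p = 2.2e-05) and was at -0.10 (edgeR adjusted p = 0.070) in CAL27.

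Among 13 partners, 4 were lower and 4 higher in CAL27, against 21.8% and 22.6% of all genes, and 1 was lower and 6 were higher in HSC3, against 15.4% and 13.0%, with medians of 0.01 and 0.21. IRF9, the partner of STAT2, had few counts, 22, 23 and 30 in CAL27 vehicle libraries, 1, 6 and 0 after DOX, 13, 12 and 12 in HSC3 vehicle libraries and 4, 21 and 4 after DOX. It shares 23.9% of its exon bases with another annotated gene on the same strand, so its counts are uncertain. NMI, which binds STATs, fell in CAL27 by -0.33 (edgeR adjusted p = 6.0e-05) and rose in HSC3 by 0.34 (edgeR adjusted p = 0.011), a difference of 0.66 (edgeR adjusted p = 3.3e-04). STAP2, an adaptor, likewise fell in CAL27 by -0.28 (edgeR adjusted p = 9.7e-05) and rose in HSC3 by 0.45 (edgeR adjusted p = 0.022), a difference of 0.72 (edgeR adjusted p = 0.0012). STAM rose by 0.31 (edgeR adjusted p = 2.9e-05) and 0.21 (edgeR adjusted p = 0.029). KPNA1, a nuclear import receptor, rose by 0.53 (edgeR adjusted p = 2.3e-09) and 0.59 (edgeR adjusted p = 4.5e-05). SH2B1 rose in HSC3 by 0.60 (edgeR adjusted p = 0.014) and was at 0.01 (edgeR adjusted p = 0.90) in CAL27. CREBBP, an acetyltransferase, fell in HSC3 by -0.25 (edgeR adjusted p = 0.021), with a CAL27 adjusted p of 0.95.

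The reported targets of STAT2 with IRF9 were the list in which the most genes fell. This list was chosen with earlier results of these data known, and it holds genes that the authors reported as lowered by silencing. Its shares therefore describe the list and are not a test. All 30 passed as lower in CAL27, against 21.8% of all genes, with a median log2 fold change of -1.77. In HSC3, 26 of 30 did, against 15.4%, with a median of -1.38. IFI44L, an interferon-induced gene, went from 106 to 6.09 CPM in CAL27 (-4.13, SE 0.070, edgeR adjusted p = 1.0e-16) and from 13.5 to 1.08 CPM in HSC3 (-3.64, SE 0.25, edgeR adjusted p = 1.8e-06). XAF1 fell in both lines, by -3.36 (edgeR adjusted p = 2.6e-14) in CAL27 and -2.65 (edgeR adjusted p = 4.2e-04) in HSC3. MX2, which encodes an antiviral GTPase, also fell in both, by -3.22 (edgeR adjusted p = 2.0e-05) and -2.37 (edgeR adjusted p = 1.6e-05). ISG15 fell by -1.39 (edgeR adjusted p = 3.1e-12) in CAL27 but gave 0.08 (edgeR adjusted p = 0.83) in HSC3, whereas MX1 fell in both, by -2.85 (edgeR adjusted p = 5.3e-12) and -1.92 (edgeR adjusted p = 2.9e-06).

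Of 18 STAT3 targets in CAL27, 8 were lower and 7 higher, against 21.8% and 22.6% of all genes, and of 17 in HSC3, 4 were lower and 4 higher, against 15.4% and 13.0%. The medians were 0.08 and -0.14. CCND1, which encodes cyclin D1 and is also on the STAT5 list, rose by 1.39 (edgeR adjusted p = 9.0e-14) in CAL27 and 0.55 (edgeR adjusted p = 4.0e-05) in HSC3. LCN2 fell by -0.86 (edgeR adjusted p = 7.7e-04) and -2.97 (edgeR adjusted p = 7.8e-06). TIMP1 rose in CAL27 by 0.49 (edgeR adjusted p = 2.9e-06) and was at -0.18 (edgeR adjusted p = 0.14) in HSC3. CEBPD fell in CAL27 by -0.83 (edgeR adjusted p = 1.9e-07) and was at -0.19 (edgeR adjusted p = 0.35) in HSC3. VEGFA fell in HSC3 by -0.49 (edgeR adjusted p = 1.2e-04), with a CAL27 adjusted p of 0.98.

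Of 9 STAT5 targets, 1 was lower and 6 higher in CAL27, against 21.8% and 22.6% of all genes, and 1 was lower and 5 higher in HSC3, against 15.4% and 13.0%, with medians of 0.29 and 0.22. PIM1, BCL2L1, CCND1 and MYC, all among those higher in CAL27, are also on the STAT3 list. CISH, whose promoter is shown with the sequences, gave -0.13 and 0.06 (edgeR adjusted p = 0.66 and 0.88). CCND2, a cyclin D gene, rose by 1.38 (edgeR adjusted p = 7.7e-13) in CAL27 and 0.20 (edgeR adjusted p = 0.035) in HSC3. PIM1, a kinase gene, rose in CAL27 by 0.17 (edgeR adjusted p = 0.047) and fell in HSC3 by -0.44 (edgeR adjusted p = 8.7e-04), a difference of -0.61 (edgeR adjusted p = 2.9e-04). BCL6, which encodes a transcriptional repressor, fell by -0.55 (edgeR adjusted p = 3.9e-09) in CAL27 and rose by 0.75 (edgeR adjusted p = 6.2e-04) in HSC3. Of 9 STAT6 targets tested in CAL27, 5 were lower and 2 higher, and of 6 in HSC3 1 was lower and 1 higher, against the same shares of all genes, with medians of -1.26 and -0.15. SERPINB3 and SERPINB4, near-identical neighbors whose reads may be split between them, were lower in CAL27, by -1.91 and -1.76 (edgeR adjusted p = 5.5e-04 and 0.0039), and did not pass the filter on low counts in HSC3. TGM2, which encodes a transglutaminase, rose by 1.91 (edgeR adjusted p = 9.7e-16) in CAL27 and 1.48 (edgeR adjusted p = 4.6e-07) in HSC3. IL4R, a STAT6 target and the receptor chain that recruits it, rose by 0.21 (edgeR adjusted p = 4.1e-04) in CAL27 and fell by -0.35 (edgeR adjusted p = 0.041) in HSC3.

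**Figure D5:**
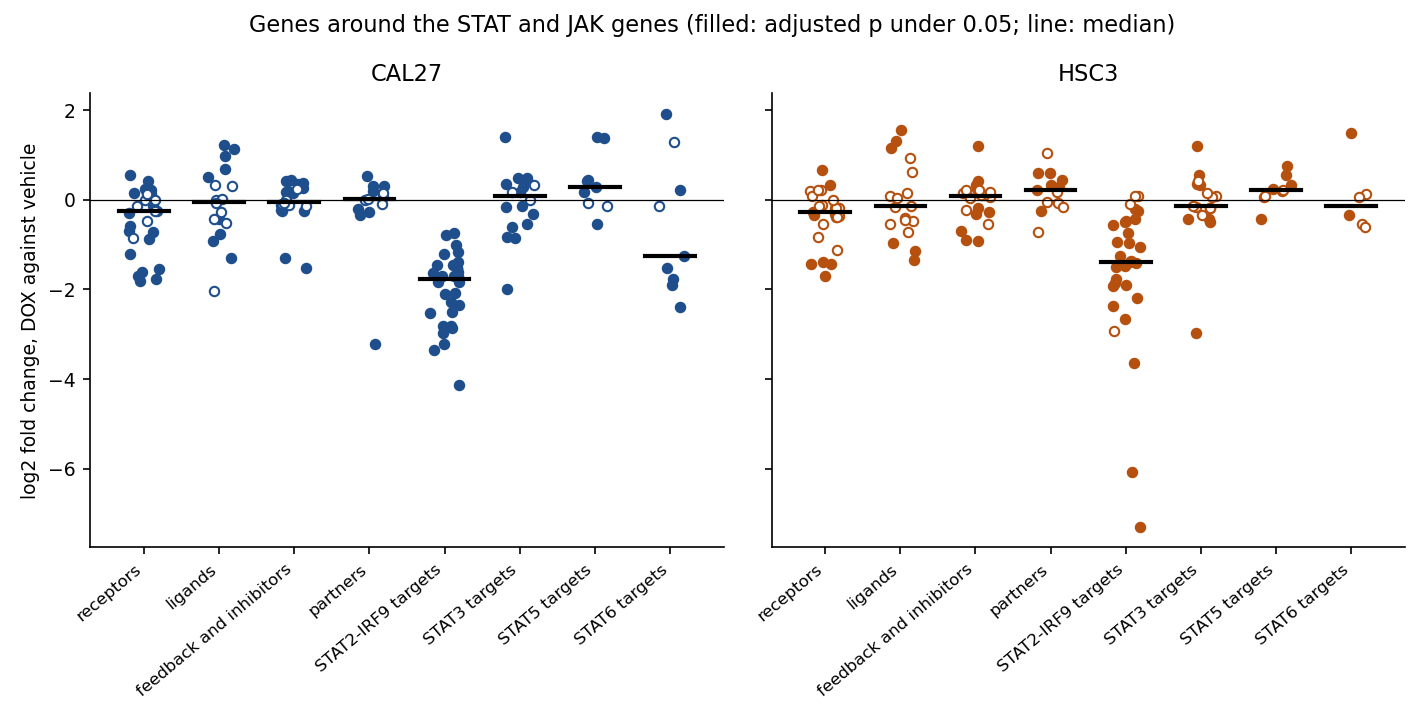
Log2 fold change of DOX against vehicle for each tested gene of 8 lists in CAL27 (left) and HSC3 (right). Filled points have an edgeR adjusted p under 0.05 and black lines are list medians, which are -1.77 and -1.38 for the STAT2-IRF9 targets.

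The promoters of these genes were read for the letters of the elements that STATs bind, to set the members beside the list in which the most genes fell. The windows run from 250 bases before to 50 after each RefSeq start on GRCh38.p14. The interferon-gamma-activated site (GAS) was searched as TTCNNNGAA, the form with 1 more base preferred by STAT6 as TTCNNNNGAA, and the interferon-stimulated response element (ISRE) bound with IRF9 as GAAANNGAAA, each on both strands. All 9 members had a window, 16 windows in all. None of the 9 held GAAANNGAAA or TTCNNNGAA, which 4.37% and 9.37% of 27318 genes hold, and STAT5A alone held TTCNNNNGAA, which 7.79% of genes hold. Of the 30 STAT2-IRF9 targets, 19 (63.3%) held GAAANNGAAA and 6 (20%) held TTCNNNGAA. A match is a description of the letters only.

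The sites below show a single match in capitals, with 30 bases of the gene strand each. In ISG15 another GAAANNGAAA match overlaps the marked one, and its last bases are in lower case. IFI44L, at chr1:78620274-78620303 on the plus strand, carries the same 30 bases a second time at chr1:78620365-78620394. ISG15 is at chr1:1013374-1013403 and MX1 at chr21:41420559-41420588, both on the plus strand, and they were added for their place among the best-known interferon targets after their values were seen. SOCS1, a feedback inhibitor of the JAKs, is at chr16:11256298-11256327 on the minus strand. SOCS1 fell by -1.52 (edgeR adjusted p = 3.1e-06) in CAL27 and was at -0.54 (edgeR adjusted p = 0.51) in HSC3. CISH, a STAT5 target, is at chr3:50611884-50611913 on the minus strand with TTCNNNGAA, and STAT5A at chr17:42287200-42287229 on the plus strand with TTCNNNNGAA.
IFI44L: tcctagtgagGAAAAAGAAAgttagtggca
ISG15: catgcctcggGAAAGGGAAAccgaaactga
MX1: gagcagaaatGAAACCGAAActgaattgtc
SOCS1: cgccaccgcgGAAAGAGAAAccaaaagtgg
CISH: cagcccgcggTTCTAGGAAgacgctgcttc
STAT5A: ttttttttttTTCCTCTGAAgttaaaagaa

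STAT2 is the member that passed as lower in both lines with all libraries kept, and its upstream bases are shown for contrast with the sites above. The stretch is chr12:56360204-56360357 on the minus strand, 154 bases that lie before every annotated start of STAT2, with 68.2% G or C and 0 matches to the searched letters.
STAT2: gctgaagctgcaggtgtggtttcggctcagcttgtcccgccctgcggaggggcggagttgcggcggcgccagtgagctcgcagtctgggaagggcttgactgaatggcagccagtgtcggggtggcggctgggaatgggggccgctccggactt

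Which genes followed the members most closely over the 12 libraries was measured as the root mean square difference of centred log2 CPM, among 9233 genes (9234 for STAT5A and JAK3). The nearest to STAT2 were EFNA1 at 0.13, RNF213 at 0.14, SPSB1 at 0.15 and RDH10 and ANK3 at 0.16 each, where the median over all candidates was 0.59. EFNA1 encodes an ephrin ligand and RNF213 a large ubiquitin ligase. EFNA1 changed by -1.08 in CAL27 and -0.15 in HSC3, and RNF213 by -0.98 and -0.05. The nearest to JAK1 was EXOC6B at 0.037, to STAT3 CMIP at 0.045, to STAT6 ZER1 at 0.053, to STAT5B FAM160A1 at 0.063, to TYK2 SNF8 at 0.066, to JAK2 MMGT1 at 0.087, to STAT5A TMEM132A at 0.18 and to JAK3 LRATD1 at 0.34. The 12 libraries fall into 2 lines, so that likeness includes the difference between them.

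The cells were checked against markers of the labelled type and of others. All 14 squamous epithelial markers had counts in every library, led by KRT5, and their summed level fell from 7899 to 8116 CPM with vehicle to 3806 to 4061 CPM with DOX in CAL27 cells and from 6400 to 7100 CPM to 3057 to 3639 CPM in HSC3 cells. Of the 14, 11 were lower and 1 higher in each line, against 21.8% and 22.6% of all genes in CAL27 and 15.4% and 13.0% in HSC3. KRT14 fell by -2.90 (edgeR adjusted p = 2.6e-14) in CAL27 and -1.88 (edgeR adjusted p = 1.2e-06) in HSC3, KRT16 by -2.25 and -1.83 (edgeR adjusted p = 7.3e-15 and 2.0e-06), and EPCAM rose by 0.40 (edgeR adjusted p = 6.7e-06) and 0.87 (edgeR adjusted p = 2.8e-05). The summed levels of 12 leukocyte, 9 fibroblast and 6 endothelial markers were at most 13.2, 15.9 and 17.2 CPM in any library, led by NCAM1 or CD14, COL1A1, and CDH5 in CAL27. The leukocyte sum went from 12.5, 13.2 and 12.8 CPM to 6.83, 7.95 and 6.24 CPM with DOX in CAL27, where NCAM1 fell by -1.90 (edgeR adjusted p = 9.1e-09). The endothelial sum there went from 17.2, 17.2 and 16.9 to 13.9, 10.0 and 11.3 CPM, with CDH5 down by -0.55 (edgeR adjusted p = 6.9e-05), and the fibroblast sum from 14.9, 15.9 and 15.2 to 11.3, 11.5 and 11.8 CPM, with COL1A2 down by -0.54 (edgeR adjusted p = 0.0036). In HSC3 the leukocyte sum was at most 2.33 CPM and the endothelial sum at most 0.872 CPM, and COL1A1 rose by 0.73 (edgeR adjusted p = 0.0089). In every library at least 3 of the 12 leukocyte markers and 1 of the 9 fibroblast markers had no count. The squamous markers fell with DOX in both lines, as STAT2 did, and the part of any of these markers in the results was not tested.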

How the data were processed

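RNA was extracted with TRIzol and made into TruSeq Stranded mRNA libraries, and the authors aligned reads to GRCh38 with STAR. The submitters' processing notes list FastQC 0.11.9, STAR 2.7.9a, Subread 2.0.1 and featureCounts. The authors deposited raw, whole-number counts per gene symbol, 1 table a line. The methods add a release number to the build, but strand setting, duplicate handling and the gene annotation used for counting are not given in the sources used here. Counts were fitted in R 4.3.3 with edgeR 4.0.16 (TMM, filterByExpr at minimums of 10 counts and 15 in total, robust glmQLFit, glmQLFTest), within each line and, for the interaction and the vehicle comparison, over 12 libraries. Coordinates and exon lengths come from GENCODE v44, and promoters from RefSeq. Members and lists were chosen with earlier results of these data known. Named were the members, MUC1 and, per list and direction, the 2 largest called changes at a mean log2 CPM of at least 1. CISH, SOCS1, ISG15, MX1, IRF9, IL11, CLCF1, CTF1 and CNTF were added after values were seen. Replicate pairs gave chi-square values of 6.35 to 119 per degree of freedom, and each library counted as 1 replicate. The fits were tested on simulated counts with 200 changed genes of any level, where the share of false calls was above the threshold of 0.05 in CAL27, HSC3 and the interaction, most so in the interaction. Alternatives were library totals, DESeq2's size factors, DESeq2 1.42.0, no filter, 1 fit of 12 libraries, counts per molecule, a 1.5-fold threshold, the replicate block and each library left out.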

Additional observations from a re-analysis of the deposited data

Results flagged for a closer look

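The DOX effect differed between the lines for 5 of the 9 genes by the interaction of line and DOX (edgeR, HSC3 minus CAL27 on the log2 scale), 1 lower and 4 higher, against 12.3% and 8.25% of all genes tested. Without CAL27 vehicle replicate 3 it was 0 lower and 3 higher. The difference was 0.86 for STAT2 (adjusted p = 6.1e-06), which fell more in CAL27. It was 0.39 for STAT5B (adjusted p = 0.0027), which rose more in HSC3, and 0.51 for STAT6 (adjusted p = 4.4e-04), which fell in CAL27 and did not pass in HSC3. For JAK2, which fell in HSC3, it was -0.53 (adjusted p = 0.014), lost without CAL27 vehicle replicate 3 (adjusted p = 0.052). For JAK3 it was 1.33 (adjusted p = 0.046) on the fewest counts of the 9 genes, and it was lost on leaving out any 1 of 7 libraries (adjusted p of up to 0.11). In simulated counts the interaction gave more false calls than its threshold allows, which bears most on the JAK2 and JAK3 calls, the nearest to it. MUC1 itself fell less in HSC3, a difference of 1.36 (edgeR adjusted p = 0.0010), on only 16 to 46 counts in the HSC3 DOX libraries. The part of MUC1 in the members' differences was not tested.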

How the results depend on the processing

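Of the members' values under all alternatives, 495 kept their side of the threshold, of which 488 kept their sign and 7, none of them called in either fit, changed it. Another 27 lost and 8 gained a call, and 1 called value changed sign, which was STAT6 between the lines with vehicle, at -0.02 with library totals. In CAL27 the count of members lower was 6 with library totals and with counts per molecule, 4 with the DESeq2 test, 3 with 1 fit of 12 libraries and 3 to 5 with a library left out (3 without vehicle replicate 1 or DOX library 5), and the count higher was 0 with library totals, with 1 fit of 12 libraries and with counts per molecule, and 0 to 1 with a library left out. The members lower by over 2-fold in CAL27 were 3 at 1.5-fold and 1 to 2 with a library left out (2 without DOX library 4). In HSC3 the count lower was 1 to 2 and the count higher 1 to 2 with a library left out, and in the interaction the count lower was 0 to 1 (0 without CAL27 vehicle replicate 3). The interaction's count higher, 4 with all libraries, was 5 with the DESeq2 test and with counts per molecule and 3 to 6 with a library left out (6 without HSC3 DOX replicate 1, where STAT3 and STAT5A gained calls). The STAT2, STAT5A and STAT6 calls in CAL27 and the STAT5B and JAK2 calls in HSC3 held in every alternative run. The cause of the changes was not tested. The replicate block was fitted in HSC3 only, since the CAL27 DOX columns carry no replicate number of the labels. Same-numbered HSC3 libraries deviated from their group with r of -0.20, 0.35 and -0.35 across genes. Deviations within a group of 3 depend on each other, so these values cannot decide whether the numbers pair the libraries. With the block STAT2 was at -0.28 (edgeR adjusted p = 0.043), and 2523 genes were lower and 1955 higher against 2782 and 2342 without it. Estimated counts per molecule ran from 2.66 in a CAL27 library to 17.5 in HSC3 DOX replicate 1, and JAK3 had the fewest counts of the 9 genes.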
